A study of Homo sapiens with 12 samples.

Results

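Integrins and laminins were followed in SK-UT-1 cells, an established line derived from a human uterine leiomyosarcoma, after treatment with an inhibitor of the BET bromodomain proteins. The members were the symbols in the deposited expression table that start with ITGA or ITGB, or with LAMA, LAMB or LAMC and a digit, without the 5 antisense RNAs. This gave 41 of 22784 symbols. They comprised 18 integrin alpha subunits, 8 integrin beta subunits, 5 laminin alpha chains, 3 laminin beta chains, 3 laminin gamma chains and 4 symbols that share the prefix but are not subunits. LAMB4 was not analysed here.

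RNA-seq was performed on total RNA from cells kept for 48 h with the DMSO vehicle, with 5 µM JQ1 or with 5 µM I-BET 762. JQ1 is a thienotriazolodiazepine that carries a tert-butyl ester, and I-BET 762 is a benzodiazepine that carries an ethyl amide. Both bind the bromodomains in the site that recognises acetylated lysine. The labels list 12 libraries, and 10 were analysed here: DMSO replicates 13, 14 and 15, JQ1 replicates 17, 18, 19 and 20, and I-BET 762 replicates 21, 22 and 23. The material was 1 cell line, and nothing in the labels says that replicates came from separate cultures, so p-values measure the spread between these libraries, which may be technical.

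Reads on genes numbered 35564586 to 39658989 per library. No 2 libraries held identical values. Over the 12 replicate pairs the chi-square of the reads, divided by the number of genes compared, was 2.73 to 20.82. It was 2.73 to 7.23 for DMSO pairs, 3.23 to 5.03 for I-BET 762 pairs and 5.16 to 20.82 for JQ1 pairs. Pairs that included JQ1 18 had the highest values, 19.46 to 20.82. All 6 smooth muscle markers in the table stood at 10 or more normalised read counts in every DMSO library, against 4 of 6 in every JQ1 library and 6 of 6 in every I-BET 762 library, and their summed level was 20340 to 20968 with DMSO, 10618 to 11229 with JQ1 and 11758 to 12327 with I-BET 762. The defining markers DES, CNN1, TAGLN, ACTA2 and CALD1 fell with both inhibitors, and SMTN was not called. MYH11 was not analysed here. Summed epithelial markers, 4 of 5 at 10 or more in every library, also moved, from 1212 to 1271 with DMSO to 511 to 602 with JQ1 and 497 to 544 with I-BET 762. The 3 endothelial markers summed to at most 7.4 in any library. Among 3 leukocyte markers CD14 alone reached 10 in every library, at 17.7 to 37.0, while PTPRC was at 0 in all libraries but I-BET 762 21, where it had 0.984. In bulk RNA, fewer cells of a type and less RNA per cell cannot be told apart, and the part of these marker shifts in the values below was not tested.

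Integrins are receptors built of 1 alpha and 1 beta subunit, which hold cells to the extracellular matrix and to other cells and pass force to actin through talin and kindlin. Laminins are cross-shaped proteins of an alpha, a beta and a gamma chain, assembled into the basement membrane that wraps each smooth muscle cell. The alpha chain carries the main binding sites for integrins and dystroglycan.

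The stretches before the start sites of a pair of laminin chains that fell and of an integrin subunit that rose are shown, because these are the sequences nearest to the point where their transcription begins. RefSeq promoter entries on GRCh38.p14 were matched for 29 of the 41 members. The entries for ITGA3, ITGA7, ITGA9, ITGAD, ITGAL, ITGAX, ITGB2, ITGB3, ITGB4, LAMA1 and LAMC3 were among those not matched. Capitals mark a GC box, GGGCGG on either strand. LAMB3 and LAMA2 fell with both inhibitors, and ITGA2 rose with both. The LAMB3 stretch is chr1:209652426-209652675 on the minus strand, the LAMA2 stretch is chr6:128882888-128883137 on the plus strand, and the ITGA2 stretch is chr5:52989102-52989339 on the plus strand, each written 5′ to 3′ along the gene.
LAMB3: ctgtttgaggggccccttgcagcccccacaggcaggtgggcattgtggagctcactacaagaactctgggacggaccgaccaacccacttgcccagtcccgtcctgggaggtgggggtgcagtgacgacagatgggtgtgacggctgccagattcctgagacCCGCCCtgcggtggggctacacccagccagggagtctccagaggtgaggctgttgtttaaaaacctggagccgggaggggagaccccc
LAMA2: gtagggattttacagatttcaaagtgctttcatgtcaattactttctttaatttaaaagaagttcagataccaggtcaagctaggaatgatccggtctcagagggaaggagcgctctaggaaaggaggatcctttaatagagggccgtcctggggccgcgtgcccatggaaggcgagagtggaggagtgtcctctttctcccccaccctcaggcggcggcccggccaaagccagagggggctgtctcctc
ITGA2: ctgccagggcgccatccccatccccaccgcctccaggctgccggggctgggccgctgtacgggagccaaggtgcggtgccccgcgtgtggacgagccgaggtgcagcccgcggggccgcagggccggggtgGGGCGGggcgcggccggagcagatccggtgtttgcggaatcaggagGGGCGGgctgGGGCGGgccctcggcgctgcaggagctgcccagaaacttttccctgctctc

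The 250-base window of the ITGA2 entry, whose end lies inside the annotated gene, holds 4 GC boxes, of which 3 lie in the 238 bases printed before the gene, whereas LAMB3 holds 1 and LAMA2 holds 0. GGGCGG was found in 15 of the 29 member promoters (51.7%) and in 42.2% of all 27305 promoters of that length. TGANTCA, the AP-1 motif, was found in 1 member promoter, that of LAMA3, and in 6.6% of all promoters. The LAMA3 window (chr18:23872770-23873019) lies inside the annotated gene, which runs from 23689453 to 23956222 on the plus strand. The ITGB1, ITGB3BP and LAMA4 windows also lie inside their annotated genes. The E-box CACGTG and the TATA box TATAAA were each found in 1 member promoter, that of ITGA6 in both cases, and in 6.5% and 11.2% of all promoters. Both strands were searched, and neighbouring GC boxes may overlap. A match describes letters and no binding was measured here. The median GC content of the 250 bases was 60.8% in the members and 57.6% in all promoters.

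With DMSO, a few members made most of the transcripts. Normalised read counts were divided by the length of all annotated exons of the gene, in kilobases, so that levels could be compared between genes. ITGB1, the beta subunit shared by most matrix-binding integrins, had the highest level at 2861 ± 149 per kb (SD, n = 3). LAMB2, a beta chain of muscle and kidney basement membranes, followed at 1677 ± 108 per kb, and LAMC1, the most widely used gamma chain, at 765 ± 22.5 per kb. ITGB1BP1, a cytoplasmic protein that binds the ITGB1 tail, had 406 ± 15.0 per kb. ITGAV and ITGB5, which pair as a vitronectin receptor, had 347 ± 14.8 and 338 ± 5.65 per kb. The DMSO ranges of ITGAV and ITGB5 overlapped, and those of the other neighbours among these 6 did not. At the low end, ITGAD was at 0 in each DMSO library, where a count of 0 allows up to 3 reads, or 2.73 to 2.91 normalised read counts. This limit covers counting error only.

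The 6 most abundant members moved by less than 1.5-fold. Counts of ITGB1 were 39236, 42314 and 43439 with DMSO, 48697, 52956, 48678 and 46125 with JQ1, and 41418, 43160 and 41433 with I-BET 762. The JQ1 libraries lay above the DMSO libraries and the I-BET 762 libraries among them, with log2 changes of 0.24 (SE 0.06, adjusted p 0.00148) and 0.01 (SE 0.06, adjusted p 0.868). Over all alternatives the change with JQ1 ran from 0.05 to 0.27, with adjusted p up to 0.246. With I-BET 762 the sign turned when libraries were scaled to equal totals or equal upper quartiles, and without DMSO 13 or I-BET 762 22. Counts of LAMB2 were 12366, 11076 and 11093 with DMSO, 9918, 9322, 10031 and 11999 with JQ1, and 12252, 12042 and 11596 with I-BET 762. JQ1 and DMSO overlapped, as did I-BET 762 and DMSO, and the log2 changes were -0.16 (SE 0.07, adjusted p 0.0497) and 0.06 (SE 0.08, adjusted p 0.532), the second turning sign under both of these scalings. LAMC1 stood at 6681, 6353 and 6350 with DMSO, 7624, 7579, 7575 and 9237 with JQ1, and 8190, 8183 and 8410 with I-BET 762. Every treated library was above every DMSO library, by log2 0.30 (SE 0.06, adjusted p 0.000395) and 0.35 (SE 0.07, adjusted p 0.000255). With JQ1 the LAMC1 change ran from 0.12 to 0.33 over all alternatives, with adjusted p up to 0.146.

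ITGAV had 6379, 6807 and 6924 counts with DMSO, 8455, 8514, 8301 and 8182 with JQ1, and 7787, 7972 and 7922 with I-BET 762. The treated libraries lay above the DMSO libraries, by log2 0.32 (SE 0.04, adjusted p 5.74e-06) and 0.24 (SE 0.05, adjusted p 0.00034). For ITGB5 the counts were 2176, 2186 and 2244 with DMSO, 2646, 2416, 2587 and 2774 with JQ1, and 2519, 2551 and 2507 with I-BET 762. These groups did not overlap with DMSO either, and the log2 changes were 0.24 (SE 0.05, adjusted p 0.000471) and 0.20 (SE 0.05, adjusted p 0.00484). Over all alternatives the ITGB5 change with JQ1 ran from 0.06 to 0.28, with adjusted p up to 0.403. With I-BET 762 it ran from 0.1 to 0.21, with adjusted p up to 0.174. ITGB1BP1 counted 2609, 2808 and 2692 with DMSO, 2376, 2594, 2587 and 2434 with JQ1, and 2453, 2547 and 2448 with I-BET 762. Treated libraries were below DMSO, with log2 changes of -0.11 (SE 0.05, adjusted p 0.049) and -0.12 (SE 0.05, adjusted p 0.0563), and 33.2% of its exon bases lie under ASAP2 on the opposite strand.

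Below this layer, many of the less abundant members fell. Of the 41 members, 35 passed the filter of 10 normalised read counts in 3 libraries, and those that did not included ITGA8, ITGAD, ITGAL, ITGB6 and ITGBL1. ITGA2 passed only through treated libraries, where it was high. LAMB3, ITGAX and ITGB7 would not have passed without the DMSO libraries, where they were high. ITGB2 reached 10 counts only in DMSO 13, DMSO 14, JQ1 17 and JQ1 19, and would not have passed without DMSO. Such calls are tied to the filter. A member was called when its adjusted p was under 0.05 by limma with Benjamini-Hochberg adjustment over 14839 tested genes and its fold change was over 1.5. With JQ1, 12 of 35 (34.3%) were called lower, where 22.8% of all tested genes were, and 4 (11.4%) were called higher, where 13.3% of all tested genes were. With I-BET 762, 13 (37.1%) were called lower, where 17.9% of all tested genes were, and 3 (8.57%) were called higher, where 8.96% were. The median log2 change of the 35 was -0.28 with JQ1 and -0.34 with I-BET 762, and that of all tested genes was 0.008 and -0.001. Both comparisons share the 3 DMSO libraries. The call rate among all genes moved with scaling: with equal library totals, 28.4% were called lower and 8.24% higher with JQ1, and of the 35 members 14 were called lower and 4 higher. Without I-BET 762 21 the median with I-BET 762 was -0.12.

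**Figure D1:**
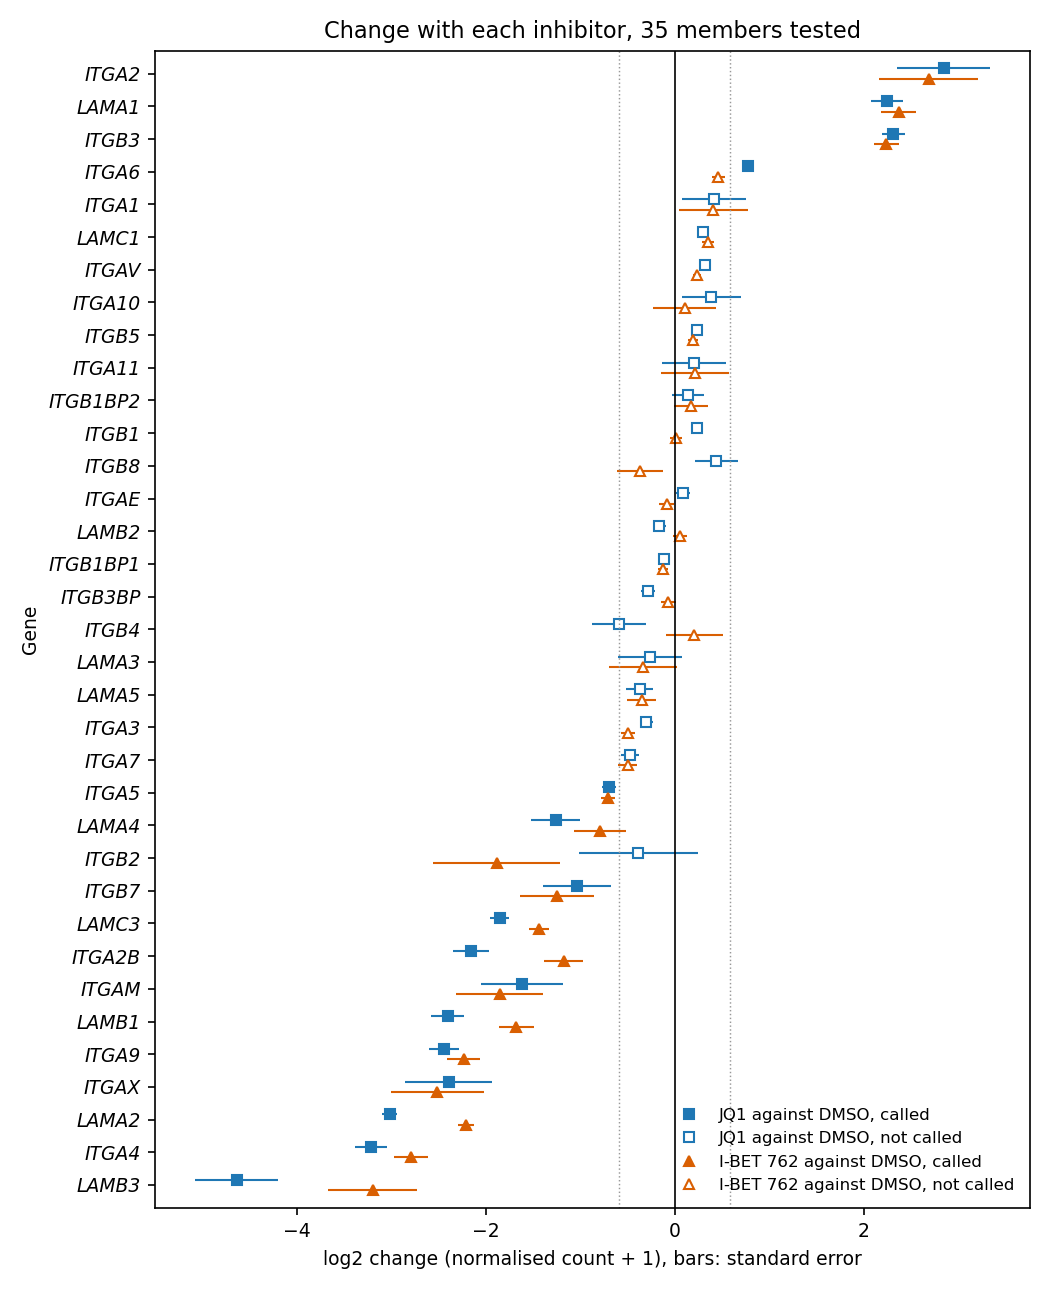
log2 change of the normalised read count plus 1 (horizontal axis) for the 35 members tested (vertical axis), with JQ1 (squares) and I-BET 762 (triangles) against DMSO; bars are standard errors, filled symbols are called changes and dotted lines mark 1.5-fold. LAMB3 has the most negative change with both inhibitors, at -4.64 and -3.20, and ITGA2 the most positive, at 2.85 and 2.69, a place that passed to ITGB3 or LAMA1 with a pseudocount of 5 or without DMSO 14.

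The laminin alpha chains moved in both directions. LAMA2, the alpha chain of muscle basement membrane whose loss causes a congenital muscular dystrophy, is on chromosome 6 of GRCh38 (128883138 to 129516566, plus strand; later positions are on this build). Its counts were 2239, 2492 and 2443 with DMSO, 276, 336, 277 and 293 with JQ1, and 525, 486 and 542 with I-BET 762. The 3 groups did not overlap, with DMSO highest and JQ1 lowest. The log2 change was -3.02 with JQ1 (SE 0.08, adjusted p 4.49e-14) and -2.20 with I-BET 762 (SE 0.08, adjusted p 9e-12). LAMA1, an alpha chain best known from embryonic basement membranes, is on chromosome 18 (6941742 to 7117797, minus strand) and had 20.3, 16.6 and 20.0 counts with DMSO, 85.7, 84.9, 88.0 and 121 with JQ1, and 116, 95.2 and 96.5 with I-BET 762. Both treated groups lay above DMSO, while JQ1 and I-BET 762 overlapped. LAMA1 rose by log2 2.25 (SE 0.17, adjusted p 8.78e-09) and 2.37 (SE 0.18, adjusted p 2.41e-08).

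LAMA4, an alpha chain of vessels and mesenchyme, had 41 to 50.8 counts with DMSO, 16.5 to 21.0 with JQ1 and 16.7 to 37.1 with I-BET 762. The log2 change was -1.26 with JQ1 (SE 0.26, adjusted p 0.000385) and -0.78 with I-BET 762 (SE 0.28, adjusted p 0.0216). With I-BET 762 the call was lost without DMSO 13, DMSO 14 or I-BET 762 21, with adjusted p of 0.0554, 0.0711 and 0.131, and without the filter on low counts, with 0.0521. The log2 change without I-BET 762 21 was -0.47. LAMA5, the widespread alpha chain of adult tissue, had mean counts of 479 ± 81.6 with DMSO (SD, n = 3), 374 ± 78.9 with JQ1 (n = 4) and 373 ± 16.9 with I-BET 762 (n = 3), and was not called, at log2 -0.37 (SE 0.14) and -0.35 (SE 0.15). LAMA3, the alpha chain of epithelial anchoring laminin, ranged from 15.4 to 40.4 over the 10 libraries with overlapping groups and was not called.

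The makeup of the alpha chain transcripts followed these levels. On the scale of all annotated exons, LAMA2 made up 69.0 ± 4.35% (SD, n = 3) of the summed alpha chain level per kb with DMSO, 24.4 ± 5.17% with JQ1 (n = 4) and 34.9 ± 1.81% with I-BET 762 (n = 3). LAMA5 went from 25.5 ± 4.13% to 55.6 ± 6.23% and 46.4 ± 1.74%, although its own level was not called as changed, and LAMA1 from 0.913 ± 0.0988% to 12.9 ± 1.85% and 11.5 ± 1.65%. The sum of the 5 chains was 131 ± 1.27 per kb with DMSO, 46.6 ± 5.63 with JQ1 and 56.2 ± 1.94 with I-BET 762. Dividing by the length of the canonical transcript alone, a choice made after the values were seen, gave LAMA2 82.2% with DMSO, 39.4% with JQ1 and 51.9% with I-BET 762, and LAMA5 14.0%, 41.7% and 31.7%. LAMA2 was the largest alpha chain with DMSO on both lengths, whereas with I-BET 762 their order depended on the length, and with JQ1 their ranges overlapped on the canonical transcript. These shares were described without a test.

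**Figure D2:**
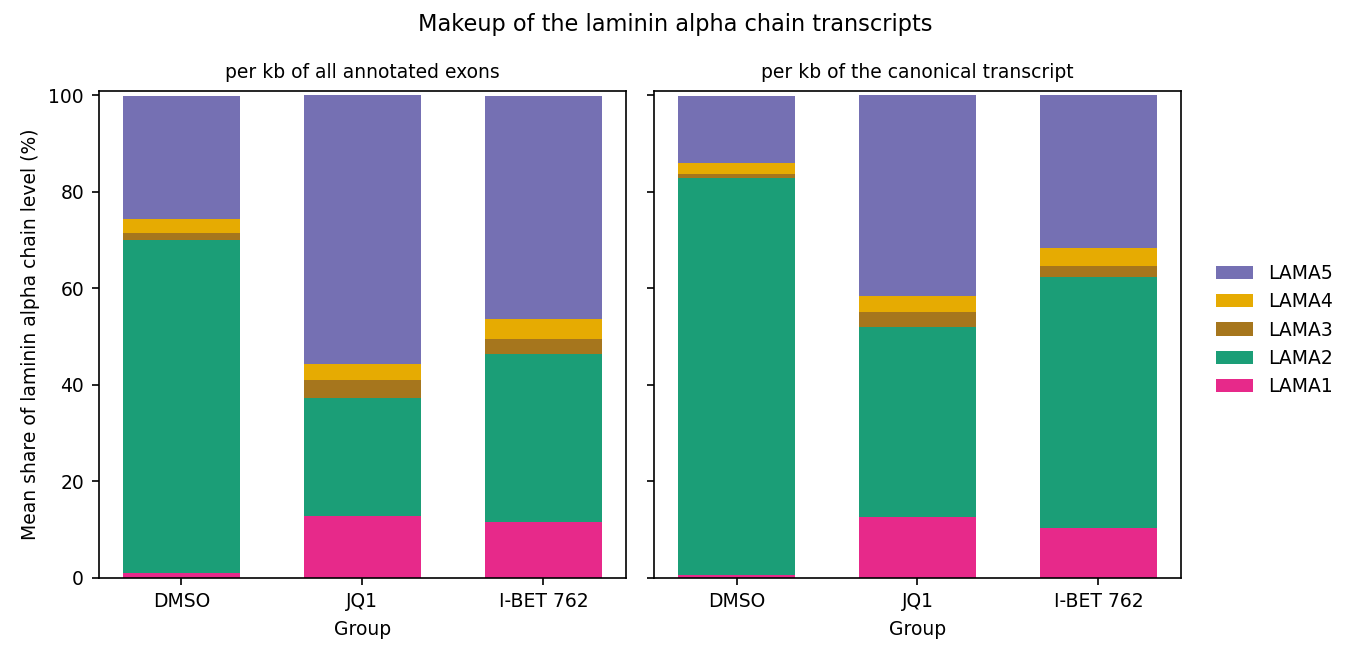
Mean share of each laminin alpha chain in the summed alpha chain level (vertical axis, %) in the DMSO (n = 3), JQ1 (n = 4) and I-BET 762 (n = 3) libraries (horizontal axis), with levels per kb of all annotated exons on the left and per kb of the canonical transcript on the right. The LAMA2 block shrinks from 69.0% to 24.4% and 34.9% on the left, and from 82.2% to 39.4% and 51.9% on the right.

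Of 3 laminin beta chains, 2 were called lower with each inhibitor, and LAMB2 was not. The LAMB3 calls are tied to the filter, as given above. Of all tested genes 22.8% were called lower with JQ1 and 17.9% with I-BET 762. LAMB3, the beta chain of the laminin that anchors epithelia and is mutated in junctional epidermolysis bullosa, is on chromosome 1 (209614870 to 209652425, minus strand). It had 88.1, 90.6 and 94.6 counts with DMSO, 8.79, 2.18, 2.0 and 1.01 with JQ1, and 6.89, 9.02 and 11.8 with I-BET 762. JQ1 replicates 18, 19 and 20 held at most 2 reads each, under the 3 reads that a count of 0 allows, and JQ1 17 held 8. LAMB3 fell, with log2 changes of -4.64 with JQ1 (SE 0.44, adjusted p 1.08e-07) and -3.20 with I-BET 762 (SE 0.47, adjusted p 2.43e-05). With JQ1 it was -3.58 with a pseudocount of 5, and over all alternatives it ran from -5.10 to -3.58. Over summed reads, the DMSO level was 26.8 times that with JQ1, with a 95% exact interval of 15.4 to 50.8, and 9.86 times that with I-BET 762, with an interval of 6.68 to 15.1, both covering counting error only. LAMB1, a beta chain of basement membrane laminins, is on chromosome 7 (107923799 to 108003213, minus strand) and had 290, 238 and 256 counts with DMSO, 38.5, 40.3, 59.0 and 59.8 with JQ1, and 91.5, 72.2 and 79.7 with I-BET 762. The 3 groups were again apart, in the order DMSO, I-BET 762 and JQ1. LAMB1 fell, with log2 changes of -2.40 (SE 0.17, adjusted p 4.29e-09) and -1.68 (SE 0.19, adjusted p 1.21e-06).

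Among the gamma chains LAMC3, mutated in a malformation of the occipital cortex, fell, and LAMC1 was not called. LAMC3 (chromosome 9, 131009174 to 131094473, plus strand) had 763, 636 and 687 counts with DMSO, 203, 165, 187 and 213 with JQ1, and 269, 253 and 247 with I-BET 762. The JQ1 libraries were below the I-BET 762 libraries, which were below DMSO. The log2 changes were -1.85 (SE 0.10, adjusted p 1.25e-10) and -1.43 (SE 0.11, adjusted p 1.34e-08).

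**Figure D3:**
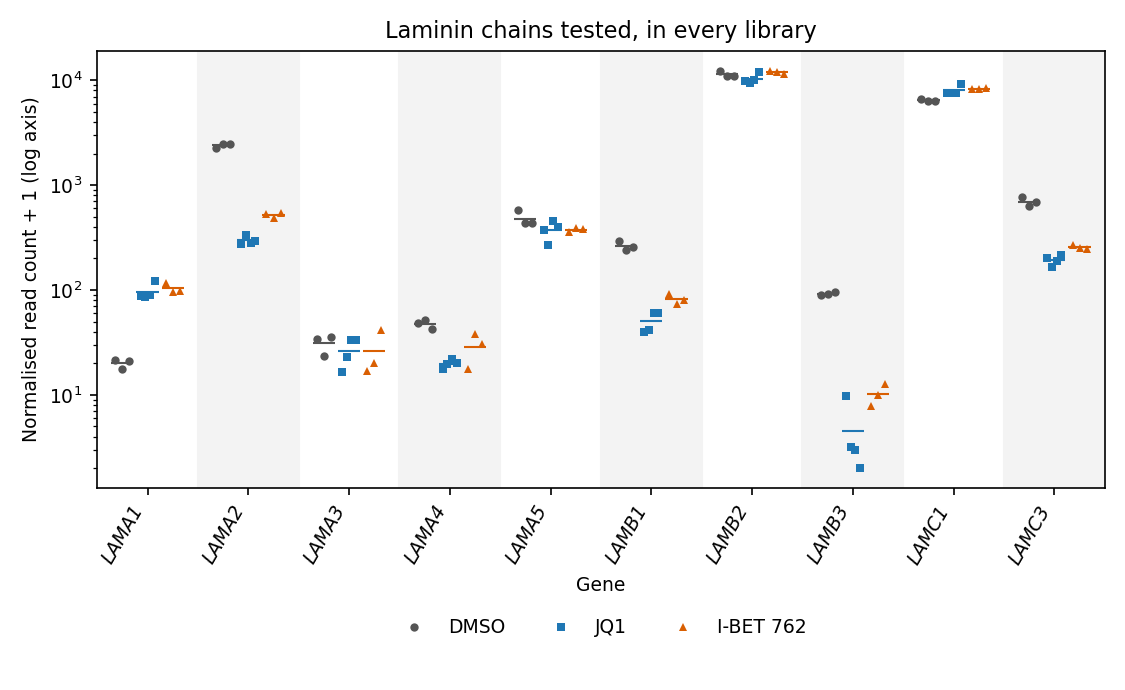
Normalised read count plus 1 (vertical axis, log scale) of the laminin chains that were tested (horizontal axis) in each DMSO, JQ1 and I-BET 762 library; symbols are libraries and short lines are group means plus 1. LAMA2, LAMA4, LAMB1, LAMB3 and LAMC3 sit lower in every treated library than in any DMSO library and LAMA1 sits higher, while LAMB2 and LAMC1 are the highest chains in each group.

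Of the integrin alpha subunits, 6 of the 15 tested were called lower with JQ1 and 6 with I-BET 762, against 2 and 1 called higher, where 22.8% and 17.9% of all tested genes were called lower and 13.3% and 8.96% higher. The calls of ITGAX among the lower and ITGA2 among the higher are tied to the filter, as given above. In the group of 6 that bind fibronectin and other matrix ligands, 4 of the 5 tested were called lower with each inhibitor and 0 higher, with a median log2 change of -2.16 and -1.17. ITGA4, which pairs with ITGB1 or ITGB7 and binds VCAM1 and fibronectin, is on chromosome 2 (181457202 to 181538940, plus strand). Its counts were 596, 624 and 654 with DMSO, 51.6, 87.0, 77 and 56.8 with JQ1, and 82.7, 109 and 79.7 with I-BET 762. Every treated library was far below DMSO, and the inhibitor groups overlapped. ITGA4 fell, with log2 changes of -3.21 (SE 0.17, adjusted p 1e-10) and -2.79 (SE 0.18, adjusted p 3.09e-09). CERKL, which covers 26.4% of the ITGA4 exon bases on the opposite strand had 0 to 14.3 counts.

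ITGA9, a partner of ITGB1 that binds tenascin-C and VCAM1, is on chromosome 3 (37452115 to 37823507, plus strand) and had 233, 214 and 207 counts with DMSO, 41.8, 32.6, 38.0 and 46.7 with JQ1, and 51.2, 47.1 and 39.4 with I-BET 762. Treated and DMSO libraries did not overlap. ITGA9 fell, with log2 changes of -2.44 (SE 0.16, adjusted p 1.44e-09) and -2.23 (SE 0.17, adjusted p 2.1e-08). The antisense ITGA9-AS1, which covers 9.2% of its exon bases, moved the same way, from 147 to 161 counts with DMSO to 69.2 to 81.6 with JQ1 and 74.2 to 87.6 with I-BET 762; the strand setting of the counting is not given in the sources used here, so reads on shared bases cannot be told apart. ITGA2B, which with ITGB3 forms the fibrinogen receptor of platelets, is on chromosome 17 (44372180 to 44389649, minus strand). Its counts were 119, 112 and 132 with DMSO, 24.2, 25, 25 and 31.4 with JQ1, and 41.3, 52.1 and 68.9 with I-BET 762. The 3 groups stood apart, with JQ1 lowest. The log2 changes were -2.16 (SE 0.19, adjusted p 4.76e-08) and -1.17 (SE 0.20, adjusted p 0.000127). ITGA5, the classical fibronectin receptor with ITGB1, fell from 2360 ± 20.2 counts (SD, n = 3) to 1465 ± 172 with JQ1 (n = 4) and 1445 ± 21.4 with I-BET 762 (n = 3), with log2 changes of -0.70 (SE 0.07, adjusted p 3.03e-07) and -0.71 (SE 0.08, adjusted p 9.82e-07).

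In the collagen-binding group ITGA2 was called higher with both inhibitors and ITGA1, ITGA10 and ITGA11 were not called. ITGA2, on chromosome 5 (52989340 to 53094779, plus strand), had 4, 0 and 2 reads with DMSO, 15, 17, 14 and 16 with JQ1, and 20, 8 and 19 with I-BET 762, or 3.87, 0 and 1.82, then 16.5, 18.5, 14.0 and 16.2, then 19.7, 8.02 and 18.7 normalised read counts. It was near the detection limit with DMSO, and each treated library was above each DMSO library. The log2 change was 2.85 (SE 0.49, adjusted p 7.89e-05) and 2.69 (SE 0.53, adjusted p 0.000363). It was 1.66 and 1.55 with a pseudocount of 5, and 2.22 and 2.06 without DMSO 14, each still called. Over summed reads ITGA2 was 8.71 times the DMSO level with JQ1 (95% exact interval 3.78 to 24.6) and 8.31 times with I-BET 762 (3.55 to 23.8), covering counting error only. ITGA1, which lies 30.1 kb from ITGA2, had log2 changes of 0.42 (SE 0.34) and 0.41 (SE 0.36), and without DMSO 15 it was called higher with both, at 0.86 and 0.84 with adjusted p of 0.0292 and 0.0465. ITGA10 and ITGA11 had at most 33.5 and 13.2 counts in any library.

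Laminin-binding alpha subunits numbered 3, and ITGA6 alone among them was called. ITGA6, which pairs with ITGB1 or with ITGB4 of hemidesmosomes, had mean counts of 629 ± 36.1 with DMSO (SD, n = 3), 1079 ± 40.7 with JQ1 (n = 4) and 867 ± 26.2 with I-BET 762 (n = 3). It rose by log2 0.78 with JQ1 (SE 0.06, adjusted p 1.12e-08), and the 0.46 with I-BET 762 (SE 0.07, adjusted p 1.53e-05) was under 1.5-fold. ITGA3, which also binds several laminins, and ITGA7, the laminin receptor of muscle, were below DMSO in every treated library. The log2 changes were -0.30 and -0.50 for ITGA3 and -0.47 and -0.50 for ITGA7, all under 1.5-fold. With equal library totals ITGA7 passed it with both, at -0.66 and -0.59, and ITGA3 with I-BET 762, at -0.59.

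In the leukocyte group of 5 alpha subunits, 3 were tested and 2 were called lower with each inhibitor, from low starting levels. ITGAX, 1 of these 2, would not have passed the filter without the DMSO libraries, so its call is tied to the filter. Of all tested genes 22.8% were called lower with JQ1 and 17.9% with I-BET 762. ITGAX, the alpha subunit of a complement receptor of dendritic cells and macrophages, is on chromosome 16 (31355134 to 31382999, plus strand) and had 44.6, 38.8 and 37.3 counts with DMSO, 4.4, 9.79, 7.0 and 7.1 with JQ1, and 6.89, 15.0 and 1.97 with I-BET 762. ITGAM, its counterpart on neutrophils and macrophages and 22.2 kb away, had 40.7, 25 and 22.8, then 13.2, 4.35, 7.0 and 13.2, then 6.89, 13.0 and 3.94. For both genes the treated libraries lay below the DMSO libraries. ITGAX fell, with log2 changes of -2.39 (SE 0.46, adjusted p 0.000218) and -2.51 (SE 0.49, adjusted p 0.000363), the second being -1.87 without I-BET 762 23. ITGAM fell with log2 changes of -1.61 (SE 0.43, adjusted p 0.00338) and -1.85 (SE 0.46, adjusted p 0.00261). PTPRC, the general leukocyte marker, was at or near 0 in every library. ITGAE, which binds E-cadherin, had 635 to 779 counts over the 10 libraries and was not called. ITGA8, of the matrix-binding group, had at most 1.01 counts in any library, ITGAL at most 8.32, and ITGAD 8.0 in JQ1 19 and at most 0.984 elsewhere.

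Of the 7 beta subunits tested, 1 (14.3%) was called higher and 1 (14.3%) lower with JQ1, where 13.3% and 22.8% of all tested genes were. With I-BET 762, 1 (14.3%) was called higher and 2 (28.6%) lower, where 8.96% and 17.9% of all tested genes were. The lower calls, of ITGB7 with both inhibitors and ITGB2 with I-BET 762, are tied to the filter, as given above. ITGB3, the partner of ITGAV in a vitronectin receptor and of ITGA2B on platelets, is on chromosome 17 (47253827 to 47313743, plus strand). Its counts were 34.9, 31.4 and 30.9 with DMSO, 156, 181, 162 and 162 with JQ1, and 160, 159 and 151 with I-BET 762. DMSO libraries were well below all treated libraries, which overlapped with each other. ITGB3 rose by log2 2.31 (SE 0.12, adjusted p 9.3e-11) and 2.24 (SE 0.13, adjusted p 8.47e-10). A protein-coding gene without a symbol shares 33.2% of the ITGB3 exon bases on the same strand and was not analysed here. ITGB1 held 88.9% of the summed beta subunit level per kb with DMSO, and ITGB3 held 0.148%, then 0.635% with JQ1 and 0.694% with I-BET 762.

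ITGB7, a subunit of lymphocyte homing receptors, is on chromosome 12 (53191323 to 53207282, minus strand) and had 20.3, 13.9 and 17.3 counts with DMSO, 5.49, 5.44, 9.0 and 13.2 with JQ1, and 6.89, 6.02 and 6.89 with I-BET 762. Treated libraries were below DMSO, with JQ1 20 nearest to it. ITGB7 fell, with log2 changes of -1.03 (SE 0.36, adjusted p 0.0185) and -1.24 (SE 0.39, adjusted p 0.0115), and the JQ1 call was lost without DMSO 13 (adjusted p 0.0754) or DMSO 15 (0.0508). ZNF740 covers 42.3% of its exon bases on the opposite strand at 2484 to 2858 counts. ITGB2, the shared beta subunit of ITGAM, ITGAX, ITGAD and ITGAL, had 10.7, 11.1 and 6.37 counts with DMSO, 11, 4.35, 13.0 and 3.04 with JQ1, and 0, 2.01 and 5.91 with I-BET 762. JQ1 overlapped with DMSO and I-BET 762 lay below it. The log2 change was -0.38 with JQ1 (SE 0.63, adjusted p 0.599) and -1.88 with I-BET 762 (SE 0.67, adjusted p 0.0237), the last lost without DMSO 13, DMSO 14 or I-BET 762 21, with adjusted p of 0.065, 0.0698 and 0.13 and a log2 change of -1.15 in the last case. It was -0.97 with a pseudocount of 5 and -2.55 without I-BET 762 23. ITGB6 had 3 reads in DMSO 15 and 0 in each other library.

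**Figure D4:**
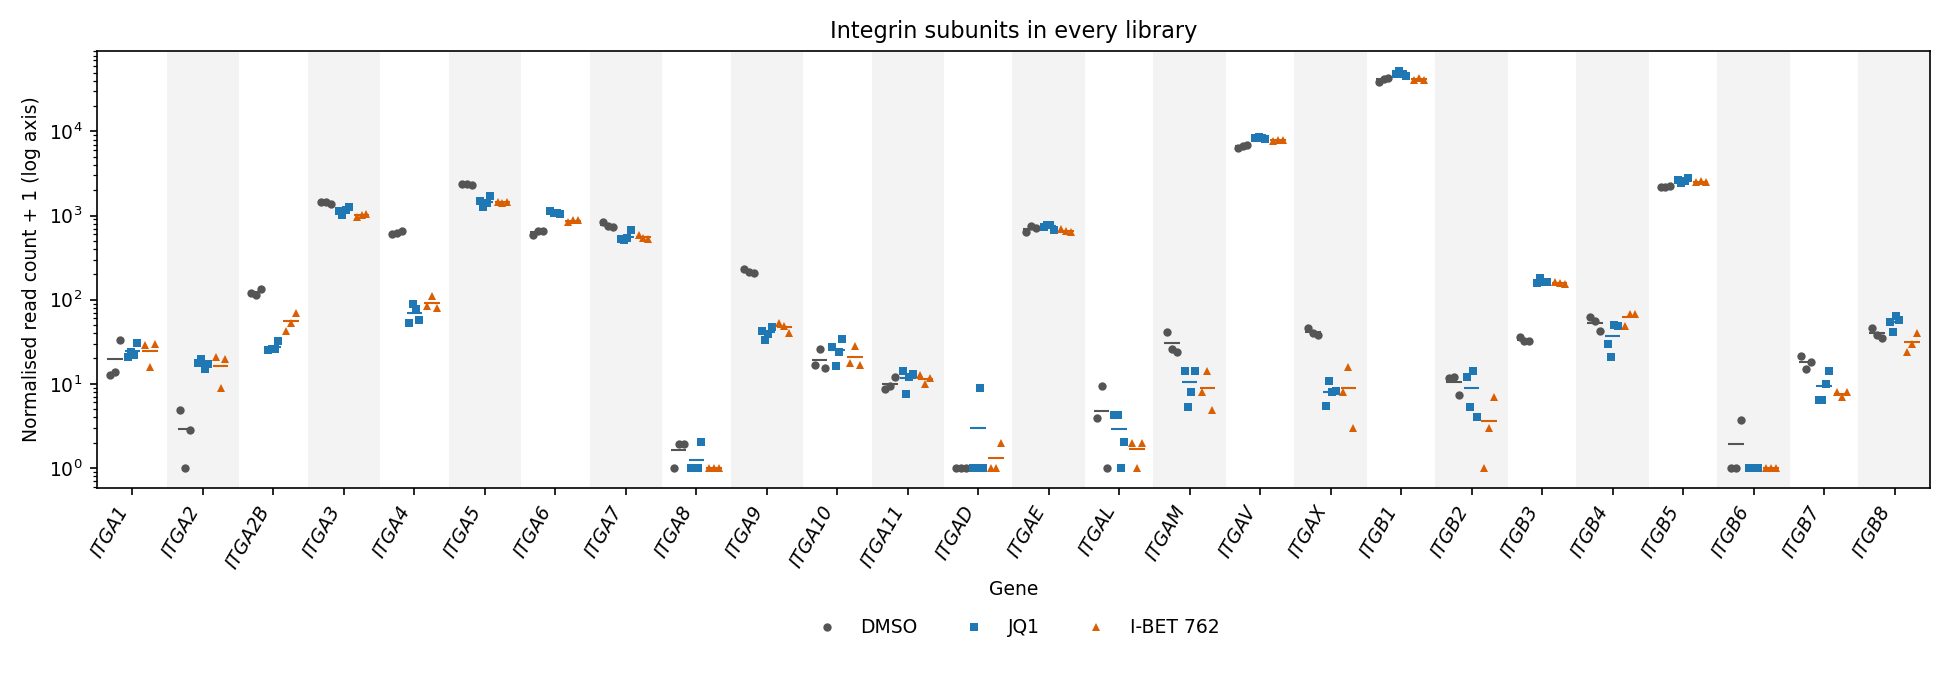
Normalised read count plus 1 (vertical axis, log scale) of the 18 integrin alpha and 8 integrin beta subunits (horizontal axis) in each DMSO, JQ1 and I-BET 762 library; symbols are libraries and short lines are group means plus 1. ITGB1 is the highest in every group, ITGA4, ITGA9, ITGA2B and ITGAX sit lower and ITGA2 and ITGB3 higher in every treated library than in any DMSO library.

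Of the 4 symbols that are not subunits 3 were tested, and 0 were called. ITGB1BP2, a muscle chaperone named melusin, had log2 changes of 0.14 (SE 0.17) and 0.18 (SE 0.18), the first turning sign with equal totals. ITGB3BP, a centromere protein, had log2 changes of -0.28 with JQ1 (SE 0.07, adjusted p 0.00244), which was under 1.5-fold, and -0.06 with I-BET 762 (SE 0.08). ITGBL1, a secreted protein with integrin-like repeats, had at most 2.03 counts in any library.

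The inhibitors were then compared directly at the matched dose of 5 µM and time of 48 h, in 35 tests of the members with p-values adjusted over all 14839 genes. With JQ1 5 members (14.3%) were lower than with I-BET 762, where 3.59% of all tested genes were called lower, and 1 (2.86%) was higher, where 1.73% were; with equal library totals these background shares were 5.27% and 1.16%, and the members' counts were again 5 and 1. The median log2 difference of the members was 0.01. The differences of LAMA2, LAMB1 and ITGA2B, whose counts did not overlap between the inhibitors as given above, were -0.81 (95% confidence interval -0.98 to -0.64, adjusted p 4.17e-06), -0.73 (-1.10 to -0.36, adjusted p 0.00609) and -0.99 (-1.39 to -0.58, adjusted p 0.00147). LAMB3 differed by -1.44 (-2.37 to -0.50, adjusted p 0.0237) with overlapping counts. That call was lost without JQ1 19 (adjusted p 0.0506), JQ1 20 (0.0512), I-BET 762 22 (0.065) or I-BET 762 23 (0.102), without the intensity trend of the model (0.0552) and with only the 2 groups in it (0.076). With a pseudocount of 5 the difference was -0.81.

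ITGB4, the hemidesmosome subunit that pairs with ITGA6, had 61.0, 54.5 and 41 counts with DMSO, 28.6, 19.6, 49.0 and 47.7 with JQ1, and 47.2, 67.2 and 66.9 with I-BET 762. The groups overlapped, and neither inhibitor was called against DMSO, at log2 -0.59 (SE 0.28, adjusted p 0.0735) and 0.21 (SE 0.30, adjusted p 0.568). Its difference of -0.80 (-1.40 to -0.20, adjusted p 0.0473) was lost without any 1 of DMSO 13, 14 or 15, JQ1 17 or 18, or I-BET 762 21, 22 or 23, with adjusted p of 0.0527 to 0.157, and it was -0.54 without JQ1 18. It was also lost without the filter on low counts (adjusted p 0.093), without the intensity trend (0.105) and with only the 2 groups in the model (0.068). ITGB8, which with ITGAV releases active TGF-beta, had 45.5, 37.0 and 33.7 counts with DMSO, 52.7, 40.3, 63.0 and 56.8 with JQ1, and 22.6, 29.1 and 39.4 with I-BET 762. JQ1 libraries were above I-BET 762 libraries and each overlapped with DMSO, at log2 0.44 (SE 0.22, adjusted p 0.09) and -0.36 (SE 0.24, adjusted p 0.202). The difference was 0.81 (0.33 to 1.28, adjusted p 0.0147) and without I-BET 762 21 it was 0.62 (adjusted p 0.0893).

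Of the other 29 members tested no difference was called. The intervals for ITGA5, ITGB3 and LAMA1 were -0.14 to 0.17, -0.18 to 0.33 and -0.49 to 0.24 on the log2 scale, and so held less than a 1.5-fold difference. Wider intervals, such as -0.89 to 1.20 for ITGA2, -0.86 to 1.10 for ITGAX and 0.16 to 2.84 for ITGB2 (adjusted p 0.0907), left differences of over 1.5-fold possible. LAMC3 (-0.42, -0.63 to -0.21, adjusted p 0.00587) and ITGA6 (0.31, 0.18 to 0.44, adjusted p 0.00148) differed under 1.5-fold.

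**Figure D5:**
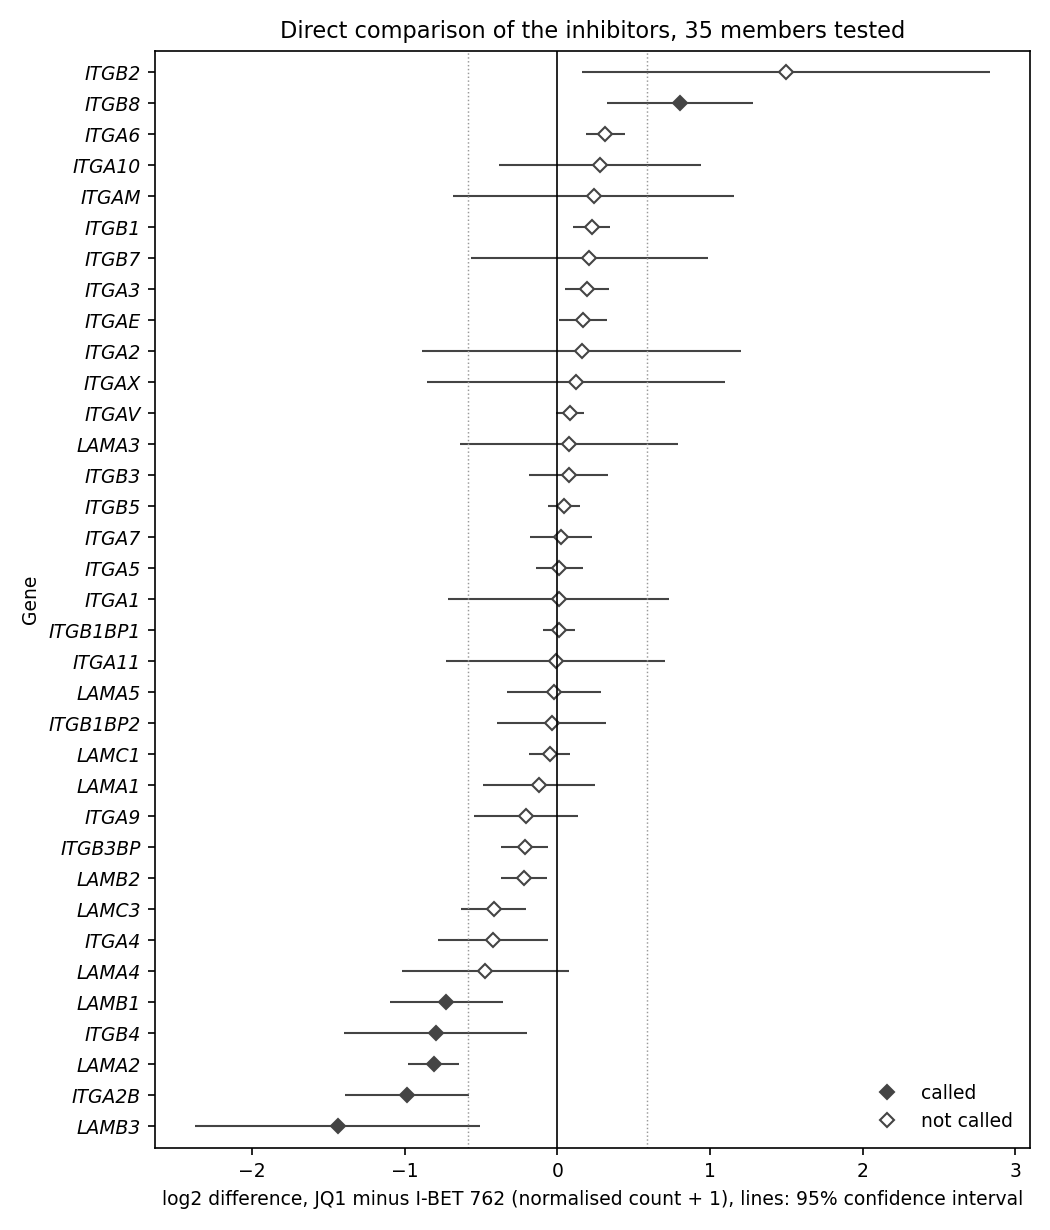
log2 difference of JQ1 minus I-BET 762 (horizontal axis) for the 35 members tested (vertical axis), with 95% confidence intervals as lines, called differences filled and dotted lines at 1.5-fold. LAMB3, ITGA2B, LAMA2, ITGB4 and LAMB1 lie lower with JQ1 and ITGB8 higher, and low-count members such as ITGB2 have the widest intervals.

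The cytoplasmic proteins that link integrins to actin were followed as a list of 27, of which 26 were tested. With JQ1 1 was called higher and 9 lower, with a median log2 change of -0.06, and with I-BET 762 1 higher and 8 lower, with a median of -0.14. Of all tested genes 13.3% were called higher and 22.8% lower with JQ1, and 8.96% and 17.9% with I-BET 762. TLN2, a talin that activates integrins, rose by log2 1.74 (SE 0.08) and 1.64 (SE 0.08). TNS4 and TNS1, tensins that bind integrin tails, and LIMS2, an adaptor of the integrin-linked kinase complex, fell with both. TNS4 had 15.5 to 22.2 counts with DMSO and at most 3.01 in any treated library, so it passed the filter only through DMSO. LIMS2 had 147 to 172 counts, then 12.0 to 22.8 and 19.7 to 38.4, and TNS1 318 to 395 counts, then 42.4 to 62.9 and 108 to 146. TLN1, the main talin, had log2 changes of -0.25 (SE 0.06) and -0.21 (SE 0.06), under 1.5-fold.

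Partners of laminin in the basement membrane and its receptors outside the integrins were a list of 13, of which 12 were in the table and 9 tested. With JQ1 2 were called higher and 2 lower, and with I-BET 762 2 and 1, with medians of -0.28 and -0.10, beside the same shares of all tested genes (13.3% and 22.8%, then 8.96% and 17.9%). NTN1, a laminin-related guidance protein, rose by log2 1.97 (SE 0.18) and 1.68 (SE 0.20), and DAG1, the laminin receptor dystroglycan, by 0.69 (SE 0.06) and 0.87 (SE 0.06). With equal library totals 1 of the 9 was called higher and 4 lower with JQ1. The DAG1 call with JQ1 was lost under equal library totals, at 0.51, and equal upper quartiles, at 0.58. BCAM, a laminin receptor named after its values were seen, was the other gene called lower with JQ1, at -0.66. HSPG2, the proteoglycan perlecan, fell, with log2 changes of -0.69 (SE 0.11) and -0.61 (SE 0.11), a call lost in both comparisons without DMSO 13, at -0.55 and -0.46, where 0 of the 9 were called lower. DAG1 stood at 6128 to 7901 counts in the treated libraries and 4130 to 4491 with DMSO, where the LAMA2 chain it binds stood at 276 to 542 and 2239 to 2492.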

How the data were processed

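Total RNA libraries of SK-UT-1 cells were sequenced by the authors and, per the labels and the study's methods, trimmed with Trimmomatic, aligned with HISAT2 2.2.1 to hg38, counted with featureCounts 2.0.3 and normalised with DESeq2, after quality control with FastQC 0.73. The authors deposited 1 table of log2 values, the log2 of the normalised read count plus 1, which ran from 0 to 20.48. The study states that outlying samples were excluded, and 2 of the 12 labelled libraries had no column in the table analysed here. The strand setting of the counting is not given in the sources used here.

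Raising 2 to each value and subtracting the pseudocount of 1 returned the normalised read counts printed here. They were whole multiples of 1 step per library within 0.01 reads for 99.67 to 99.72% of values, which gave 35564586 to 39658989 reads per library and put 3 reads, the limit that a count of 0 allows, at 2.73 to 3.3 normalised read counts.

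Log2 values of the 3 groups were fitted in 1 model with limma 3.58.1 in R 4.3.3, with an intensity trend in the moderation and no covariates, over the 14839 genes with at least 10 normalised read counts in at least 3 libraries. The authors tested with limma-voom, DESeq2 and edgeR, and limma was fitted here to the deposited log2 values. A log2 change on this scale understates the change of low genes. Calls needed an adjusted p under 0.05 (Benjamini-Hochberg) and a fold change over 1.5. Intervals of read ratios are exact and conditional on the summed reads. Tables were handled in Python 3.11.15 with pandas 2.3.3 and numpy 2.4.6. The limma fit was tested on simulated counts with a spread taken from the DMSO libraries, and the other steps were not tested in this way.

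Values in full were given for members called in the same direction with both inhibitors (up to 10 in each direction, ranked by the smaller change), members called between the inhibitors, and the 6 highest per kb with DMSO, and up to 3 genes in each direction for the lists of adhesion complex and basement membrane genes. The values of 1 member are not reported here. The members and lists were chosen with earlier results of these data known. Markers of smooth muscle, epithelial, endothelial and leukocyte cells were listed to check the cell line. Exon lengths and positions came from GENCODE on GRCh38, where the 41 members were found by symbol, and promoters from RefSeq. Alternatives were other pseudocounts, filters, scalings, moderation, groups in the model and fold thresholds, limma-voom on the recovered reads, and leaving out each library.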

Additional observations from a re-analysis of the deposited data

Results flagged for a closer look

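In 4 of the 35 members tested, 1 of the 4 JQ1 libraries stood apart from the others, with a gap to its neighbour above Dixon's 95% critical share of the group's range, which chance passes in about 1 of 20 groups. JQ1 20 was the highest JQ1 library for ITGA2B at 31.4 normalised read counts, for LAMA1 at 121 and for LAMC1 at 9237, with gaps of 0.883, 0.911 and 0.971 of the range. JQ1 17 was the highest for LAMB3 at 8.79, with a gap of 0.851. Without the library that stood apart, the log2 change with JQ1 was -2.24 for ITGA2B, 2.13 for LAMA1 and -5.10 for LAMB3, each still called. LAMC1 was not called with JQ1, and its log2 change ran from 0.12 to 0.33 over all alternatives.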

How the results depend on the processing

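No paired analysis was possible because the replicate numbers of the libraries are all different. Over 76 member changes and at most 19 alternatives each (38 changes had no value at a mean of at least 100 counts), 1359 of 1406 values kept their direction and side of the threshold, 27 lost a call, 9 gained one and 11 changed sign, and the cause was not tested. With a mean of at least 100 counts, where fewer members are tested, 2 members were called higher and 5 lower with JQ1. Of all genes 13.1% and 17.3% were. With I-BET 762 1 and 5 members were called (8.05% and 13.1% of all genes), and the median was -0.10. Between the inhibitors 0 and 2 were called (1.39% and 2.38% of all genes). Without a fold threshold 8 members were called higher and 18 lower with JQ1, where 36% and 35.6% of all genes were. The counts were 7 and 15 with I-BET 762 (29.9% and 31.3%), and 4 and 8 between the inhibitors (13.3% and 14%). At a fold change over 2, 0 and 1 were called between the inhibitors (0.478% and 0.91% of all genes). Calls lower with JQ1 than with I-BET 762 numbered 3 without the intensity trend and 3 with only the 2 groups in the model. Of all genes 3.5% and 2.97% were. The median of all genes was -0.175, -0.097 and -0.088 under equal totals and -0.104, -0.068 and -0.045 under upper quartiles in the 3 comparisons, and the members' median with JQ1 was then -0.46 under equal totals. Under equal totals ITGAE and ITGB1BP2 had -0.10 and -0.04 with JQ1, and ITGB1 and LAMB2 -0.08 and -0.04 with I-BET 762. Under upper quartiles ITGAE had -0.02 with JQ1, and ITGB1 and LAMB2 -0.06 and -0.01 with I-BET 762. Leaving out 1 library at a time gave a median with I-BET 762 of -0.39 to -0.12. Between the inhibitors 0 to 2 members were then higher and 3 to 5 lower, beside 1.33 to 2.13% and 2.74 to 3.93% of all genes. With I-BET 762 the log2 change was then -0.13 to 0.34 for ITGA10 and -0.03 to 0.04 for ITGB1. ITGB4 passed the threshold with JQ1 under equal totals (-0.77), upper quartiles (-0.70) and without JQ1 19 (-0.76) or JQ1 20 (-0.75). ITGA2, ITGAM, ITGAX, ITGB2 and ITGB7 had low counts and wide standard errors, and the cause of this width was not tested.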
